A study of Rattus norvegicus with 10 samples.

Results

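The enzymes that attach glutathione, glucuronic acid or sulfate to other molecules were compared between livers of iron-deficient and of pair-fed rats. The members were the genes of the array whose symbol begins with Gst and a class letter (cytosolic and mitochondrial glutathione transferases), Mgst (microsomal glutathione transferases), Ugt1 or Ugt2 (UDP-glucuronosyltransferases) or Sult (sulfotransferases), each read through its own probe set. Of 14217 genes with such a probe set, 45 were members: 20 Gst, 3 Mgst, 8 Ugt and 14 Sult genes. All 8 Ugt members were Ugt2 genes, because both probe sets of the Ugt1a locus were shared by 8 Ugt1a genes and are described apart.

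The rats were male Sprague-Dawley animals, an outbred stock, 5 weeks old per the labels. The iron-deficient group (n = 5) ate a diet of about 3 ppm iron ad libitum for 3 days, and the pair-fed group (n = 5) received the control diet of 48 ppm iron, limited to what the other group ate. Livers were taken 1.5 h after feeding began, following earlier training to a daytime meal in both groups, and each was read on 1 Affymetrix expression array of the rat genome. One label of the control samples names the iron-deficient diet while their titles and treatment labels name the control diet, and the titles were followed.

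Conjugation makes drugs, steroids, bilirubin and products of oxidation water soluble, so that they can leave in bile or urine. Glutathione transferases join glutathione to electrophiles, UDP-glucuronosyltransferases of the endoplasmic reticulum use UDP-glucuronic acid, and sulfotransferases of the cytosol use the sulfate donor PAPS (3′-phosphoadenosine 5′-phosphosulfate). In rat liver many of these genes answer to xenobiotic receptors, to the oxidative stress factor NRF2 and to the sex pattern of growth hormone.

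Values are log2 RMA values (robust multiarray average, a summary of the brightness of a probe set), and 1 unit is a 2-fold difference. A level may be compared between rats for 1 probe set, not between genes. Array medians lay between 6.19 and 6.22 in all 10 rats, and the mean correlation of an array with the others between 0.9915 and 0.9941. The lowest correlation belonged to iron-deficient rat 1, which also had the highest 3′ minus 5′ differences of Gapdh (0.36) and actin (1.74), a sign of RNA quality. The 8 hepatocyte markers measured had mean values of 13.92 or more and changes of -0.03 to 0.06. The 5 erythroid markers measured were all lower in iron deficiency (median -0.74, from -1.23 to -0.28), and 4 of them passed the test described next. Their mean ran from 5.67 to 6.46 in the iron-deficient rats and from 6.17 to 7.20 in the pair-fed rats, and their part in the results below was not tested.

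Most conjugating enzymes kept levels that differed little between the diets. By the rank products test, which ranks all probe sets by each of the 25 differences between 1 array of either diet and estimates a false discovery rate (FDR) over all probe sets, 1 of 45 members passed at an FDR of 0.05 as higher (Sult2a2) and 2 as lower (Gsta3 and Sult1c2). Of all 31042 probe sets, 0.303% passed as higher and 0.561% as lower. The other 42 members did not pass. Changes are given as the iron-deficient mean minus the pair-fed mean on the log2 scale. Their median was -0.02 over the members, with 20 higher and 25 lower, beside -0.01 over all 14217 genes. The median size of change, regardless of sign, was 0.10 for members and 0.07 for all genes. By limma, whose adjusted p stayed at 0.616 or more for every member, no probe set on the array passed after Benjamini-Hochberg adjustment. At an unadjusted limma p of 0.05, 3 of 45 members stood apart beside 6.98% of all probe sets: Ugt2b1 was higher, and Mgst2 and Sult1c3 were lower. No member had groups that did not overlap, which was the case for 1.29% of all probe sets. The 95% interval of the change lay within 1.5-fold in either direction for 36 of 45 members, beside 13631 of 14217 genes. It lay within 2-fold for 41 members, beside 14090 of all genes, so a larger share of members than of all genes had wide intervals. The 4 members whose intervals reached beyond 2-fold were Sult2a2, Ugt2b, Sult1c2 and Gsta3.

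**Figure D1:**
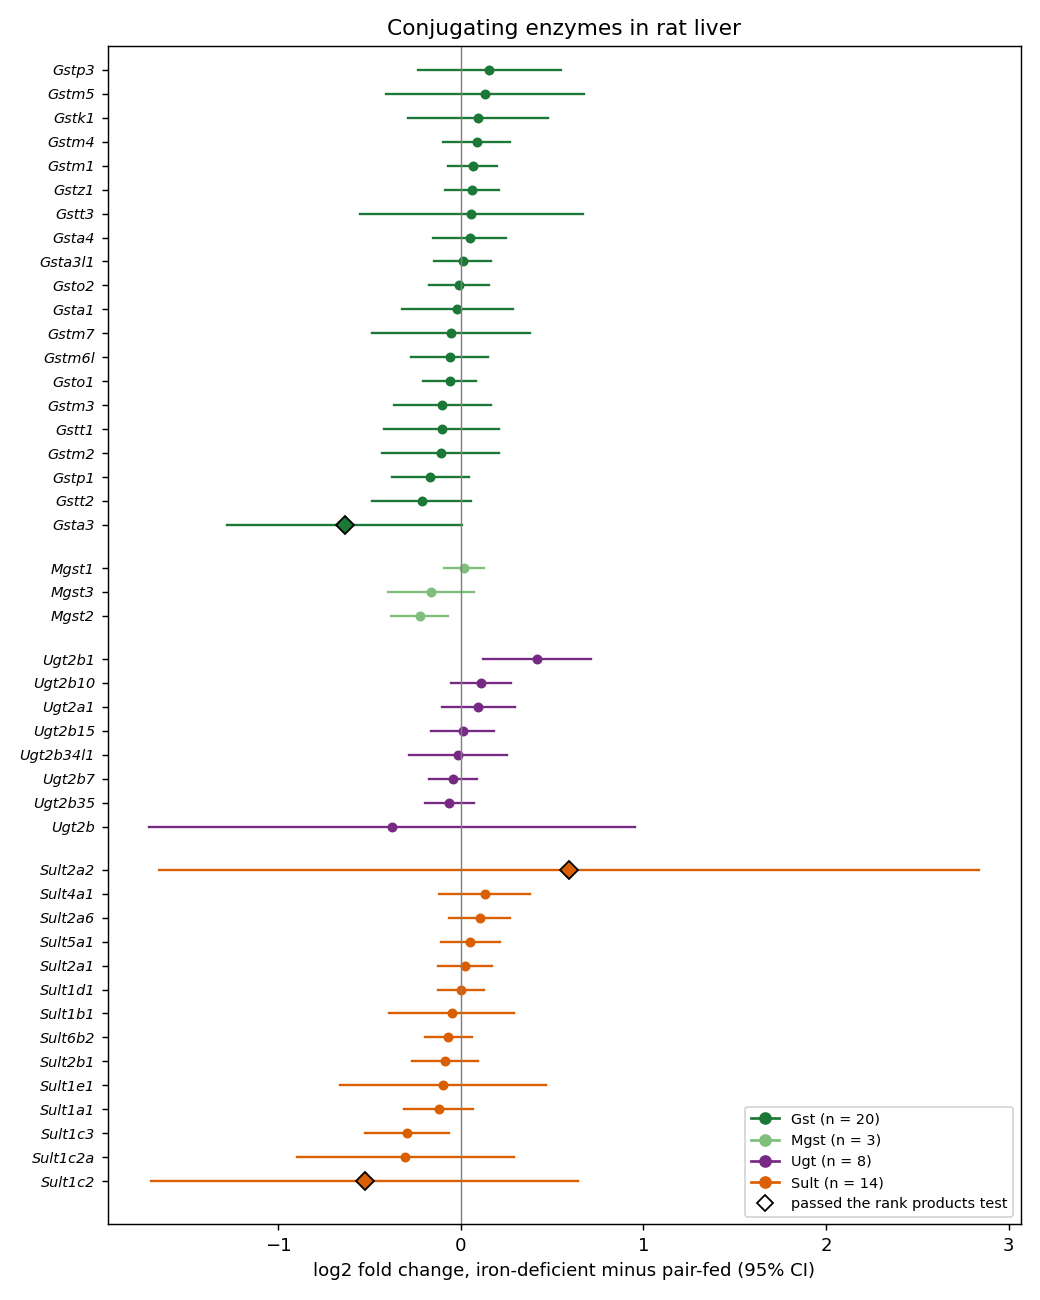
Log2 fold change (iron-deficient minus pair-fed, horizontal axis) of each of the 45 members with its 95% interval, grouped by family, 5 rats a group; diamonds passed the rank products test. Sult2a2, Ugt2b and Sult1c2 have the widest intervals, and only those of Ugt2b1, Mgst2 and Sult1c3 leave out 0.

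The 20 soluble glutathione transferases had a median change of -0.02. One of them, Gsta3, passed the rank products test as lower, and 19 did not pass. Gsta3 encodes an alpha class enzyme, a class that handles electrophiles and lipid peroxides. In the iron-deficient rats 1 to 5 it read 8.26, 9.37, 8.78, 7.54 and 8.63, and in the pair-fed rats 8.96, 9.70, 8.52, 9.37 and 9.22. One iron-deficient rat lay above the pair-fed median of 9.22, and the groups overlapped. The means were 8.51 ± 0.68 and 9.15 ± 0.45 (SD, n = 5 each), a change of -0.64 with an SE of 0.30, or a 1.55-fold lower level (FDR 0.00667). The exact permutation test over the rats, 2-sided, gave p = 0.119, where the smallest p that 5 against 5 allows is 0.00794. Without iron-deficient rat 4 the change was -0.39 (FDR 0.0835), and without pair-fed rat 2 it was -0.50 (FDR 0.0780), so that each of these rats ends the call. With bulk RNA, fewer cells of a type and less RNA per cell cannot be told apart.

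The other alpha class members did not pass the test. Gsta1 had means of 12.58 ± 0.33 and 12.60 ± 0.15, a change of -0.02 (95% interval -0.32 to 0.29). Gsta4, which acts on the lipid peroxidation product 4-hydroxynonenal, changed by 0.05 (-0.15 to 0.25). The probe set shared by Gsta5 and Gsta2 read 13.42, 13.03, 13.61, 13.60 and 13.27 in iron deficiency and 12.86, 13.10, 12.96, 13.27 and 13.26 in pair-fed rats, a difference of 0.30 with an SE of 0.12 that did not pass (exact permutation p = 0.0635). Gsta3l1 read 3.49 on average in iron deficiency, near the bottom of the scale. Probe sets of this class can bind transcripts of close relatives, and how far these arrays separate them was not tested.

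The promoters of Gsta3 and Gsta1 are shown because Gsta3 was the 1 soluble transferase that passed the test and Gsta1 is its neighbour of the same class. Whether their changes differ was not tested, and the 95% interval of Gsta3, -1.28 to 0.01, holds the change of Gsta1. Sequences are from the RefSeq annotation of the rat genome GRCr8, 250 bases before to 50 bases after the start of the gene, 5′ to 3′ on the strand of the gene, and capitals mark TGACNNNGC, the core of the antioxidant response element to which NRF2 binds. The Gsta3 window is chr9:31154739-31155038 on the plus strand and is one of 2 listed for the gene. The Gsta1 window is chr9:31216483-31216782 on the minus strand.
Gsta3: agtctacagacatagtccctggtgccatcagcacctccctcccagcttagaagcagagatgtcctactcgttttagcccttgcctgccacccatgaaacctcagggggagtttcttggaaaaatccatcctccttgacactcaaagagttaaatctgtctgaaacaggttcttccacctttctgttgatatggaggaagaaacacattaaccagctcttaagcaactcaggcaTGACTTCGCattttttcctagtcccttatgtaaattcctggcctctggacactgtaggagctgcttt
Gsta1: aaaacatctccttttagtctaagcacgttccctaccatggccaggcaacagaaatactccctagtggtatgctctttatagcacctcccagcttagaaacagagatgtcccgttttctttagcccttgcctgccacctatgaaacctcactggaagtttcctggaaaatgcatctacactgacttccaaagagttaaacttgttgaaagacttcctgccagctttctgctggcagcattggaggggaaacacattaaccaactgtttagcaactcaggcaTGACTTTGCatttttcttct
Counted from the annotated start, the core began at base -17 in Gsta3 and at base 30 in Gsta1. In both windows it follows the same letters, gcaactcaggca. Of the 352 aligned columns of the 2 windows, gaps counted, 205 (58.2%) were identical. A shift of one window against the other adds gaps and lowers this share. The other window listed for Gsta3, chr9:31166793-31167092, held no antioxidant core and was 47.9% identical to that of Gsta1, with a single xenobiotic response element core (described next) at base -233. Searched on both strands, the antioxidant core was in 6 of the 39 members with a promoter entry (Gsta1, Gsta3, Gstm5, Gstm7, Gstp1 and Gstz1) and in 12.1% of all 33469 promoters. The core of the xenobiotic response element, GCGTG, to which the aryl hydrocarbon receptor binds, was in 9 of the 39 members and in 29.7% of all promoters. Of the 6 members with the antioxidant core, Gsta3 alone passed the test, and the changes of the other 5 ran from -0.17 in Gstp1 to 0.13 in Gstm5. A match is a run of letters, not a measured site.

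The 7 mu class transferases, which stand together in gene order and conjugate aromatic electrophiles, had a median change of -0.05, with 3 higher, 4 lower and none past the test. Gstm1 read 13.61 to 13.78 in iron deficiency and 13.53 to 13.73 in pair-fed rats, a change of 0.06 (95% interval -0.07 to 0.20). Gstm2 had the lowest change of the class, -0.11 with an SE of 0.15. Gstm5 had the highest, 0.13 with an SE of 0.25, and its values were wide in both groups, from 5.81 to 6.71 and from 5.68 to 6.99. In the mu class the largest difference between the diets was thus smaller than its own SE.

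The 3 theta class members, Gstt1, Gstt2 and Gstt3, which act on small halogenated compounds, changed by -0.10, -0.22 and 0.06. Gstt2 was lower by its brighter probe set (95% interval -0.49 to 0.06) and higher by 0.08 with its other probe set (-0.11 to 0.28), so its probe sets differ in direction. Gstt3 ranged from 9.55 to 10.90 in iron deficiency and from 9.45 to 10.78 in pair-fed rats, nearly the same span. Among the remaining classes, Gstp1, the pi class enzyme, changed by -0.17 (-0.38 to 0.04) and its neighbour Gstp3 by 0.16 (-0.23 to 0.55). Gstz1, the maleylacetoacetate isomerase of tyrosine breakdown, changed by 0.06 (-0.09 to 0.21). None of these passed the test.

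The 3 microsomal transferases did not pass either, with a median change of -0.16. Mgst1, an abundant membrane enzyme of liver, read between 14.56 and 14.62 in all 10 rats. Its change was 0.02 (95% interval -0.09 to 0.13), with all 10 rats within 0.06 of one another. Mgst2, which can also join glutathione to leukotriene A4, read 11.24, 11.49, 11.38, 11.32 and 11.41 in iron deficiency and 11.64, 11.68, 11.51, 11.68 and 11.44 in pair-fed rats. All 5 iron-deficient rats lay below the pair-fed median, and the groups overlapped only through iron-deficient rat 2 and pair-fed rat 5. The change was -0.22 (95% interval -0.38 to -0.07, or 1.17-fold lower) with an exact permutation p of 0.0159, a limma adjusted p of 0.616 and a rank products FDR of 0.649. The change without any 1 rat ran from -0.26 to -0.19.

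Among the UDP-glucuronosyltransferases, which act on steroids, bile acids and drugs, 4 of 8 members were higher and 4 lower (median change -0.00), and none passed. Ugt2b1 read 11.87, 12.61, 12.29, 12.31 and 12.37 in iron deficiency and 11.72, 11.72, 11.69, 12.18 and 12.07 in pair-fed rats. All 5 iron-deficient rats lay above the pair-fed median, and only rat 1 lay within the range of the pair-fed rats. The change was 0.42 with an SE of 0.14 (95% interval 0.12 to 0.71, or 1.33-fold higher), with an exact permutation p of 0.0476 and a rank products FDR of 0.0665. With 1 rat left out, Ugt2b1 passed the rank products test in 3 of 10 runs. These were without iron-deficient rat 1 (0.52, FDR 0.0444), pair-fed rat 4 (0.49, FDR 0.0326) or pair-fed rat 5 (0.46, FDR 0.0448). In the other runs it did not pass, and the change was smallest without iron-deficient rat 2 (0.34, FDR 0.311). It did not pass with rank sums (FDR 0.527) or with the replicate block (FDR 0.126).

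Ugt2b varied far more between rats. It read 9.06, 12.15, 12.34, 13.30 and 11.54 in iron deficiency and 12.09, 11.17, 11.85, 12.70 and 12.47 in pair-fed rats, and the lowest value by far was that of iron-deficient rat 1. The change was -0.38 with an SE of 0.61 and did not pass (FDR 0.0973). Without iron-deficient rat 1 it was 0.28, and without rat 2, 3 or 4 of that group it was -0.49, -0.54 or -0.78 and passed as lower. A further probe set of the gene gave the same order of rats in the iron-deficient group, at 4.26, 7.53, 7.81, 9.59 and 6.61, and a change of -0.14 with an SE of 0.78. The spread of Ugt2b is therefore seen with both of its probe sets.

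Ugt2b35 had means of 13.75 ± 0.07 and 13.82 ± 0.08 (change -0.06, 95% interval -0.20 to 0.07). The other 5 members changed by -0.04 to 0.11. The 2 probe sets that 8 Ugt1a genes share, the locus of bilirubin glucuronidation, both gave -0.19 (95% intervals -0.49 to 0.12 and -0.49 to 0.11). Neither passed. No direction was shared by the members of the family.

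Of the 14 sulfotransferases, 1 passed as higher and 1 as lower, beside 0.303% and 0.561% of all probe sets, and 12 did not pass. The SD within a diet group was over 0.5 in 4 of the 14. Of all probe sets with such a spread, 34% passed in either direction. The Sult1 members were lower in 6 of 7 genes (median -0.12), and the other Sult members were higher in 5 of 7 (median 0.05). Over all genes, 47.5% were higher. Sult1a1, the main phenol sulfotransferase, had means of 13.11 ± 0.18 and 13.23 ± 0.08 (change -0.12, 95% interval -0.31 to 0.07). Sult1e1, which inactivates estrogens, changed by -0.10 with an SE of 0.26. Sult1d1 read 2.83 to 2.97 in all rats, at the bottom of the scale. Sult2b1, which sulfates cholesterol, changed by -0.09 with one probe set and by 0.05 with the other, neither past the test.

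The 3 members of the Sult1C group, which act on phenols and on hydroxylated arylamines, stand close together in gene order and were all lower. Sult1c2 fell. It read 6.85, 6.12, 9.22, 6.96 and 7.51 in iron deficiency and 8.12, 6.85, 8.43, 6.92 and 8.97 in pair-fed rats. Iron-deficient rat 3 had the highest value of all 10, and the other 4 iron-deficient rats lay below the pair-fed median of 8.12. The change was -0.53 with an SE of 0.54 (1.44-fold lower, FDR 0.00697), with an exact permutation p of 0.476. Without iron-deficient rat 3 it was -0.998 (FDR 0.000952). Without iron-deficient rat 2 or pair-fed rat 3 or 5 it was -0.22, -0.38 or -0.25 and no longer passed. The probe set that Sult1c2 shares with RGD1562392 gave -0.85 with an SE of 0.59 and passed as lower, with its highest iron-deficient value, 8.99, again in rat 3.

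Sult1c2a read 10.06, 9.57, 11.23, 9.36 and 10.13 in iron deficiency and 10.59, 10.07, 10.38, 10.41 and 10.42 in pair-fed rats. Rat 3 of the iron-deficient group was again the highest, and the other 4 lay below the pair-fed median. The change was -0.30 with an SE of 0.27 (FDR 0.0609). Sult1c3 read 12.50, 12.98, 12.98, 12.99 and 12.81 against 13.06, 13.15, 13.31, 12.94 and 13.27, with every iron-deficient rat below the pair-fed median. Its change was -0.29 with an SE of 0.11 (95% interval -0.53 to -0.06), an exact permutation p of 0.0317 and an FDR of 0.327. Rat 3 did not stand out in Sult1c3. Between the promoter windows of the 3 genes, 49.1% to 51.5% of aligned columns, gaps counted, were identical. This does not tell how alike their transcripts are. Probe sets of this group may also bind transcripts of close relatives, and how far the arrays separate them was not tested. The 3 lower readings may thus not be separate measurements.

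Sult2a2, a hydroxysteroid sulfotransferase of the group that sulfates bile acids and dehydroepiandrosterone and that is more active in female than in male rat liver, was the member that passed as higher. It read 12.11, 11.15, 7.73, 7.14 and 7.50 in iron deficiency and 7.96, 7.81, 7.92, 11.56 and 7.42 in pair-fed rats. The 3 values of iron-deficient rats 1 and 2 and pair-fed rat 4 were 11.15 or more, and the other 7 were 7.96 or less. The rats thus fell into a high and a low set that did not follow the diet. The change of 0.59 had an SE of 1.03 (95% interval -1.65 to 2.84, FDR 0.0334), and the exact permutation p was 0.833. Only 2 of 5 iron-deficient rats lay above the pair-fed median. Without iron-deficient rat 1 the change was -0.15, without rat 2 of that group 0.08, and without pair-fed rat 4 it was 1.35. The call was lost in the first 2 cases and without pair-fed rats 1, 2, 3 or 5.

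The neighbours of Sult2a2 did not share this pattern. Sult2a6 read 13.53, 13.40, 13.48, 13.42 and 13.58 in iron deficiency and 13.52, 13.50, 13.38, 13.32 and 13.16 in pair-fed rats (change 0.10, 95% interval -0.06 to 0.27). Sult2a1 lay between 2.97 and 3.25 in all rats. The promoters of Sult2a2 and Sult2a6 are shown because these genes differ so widely in their spread between rats, with within-group SDs of 2.04 and 0.12. They are the GRCr8 windows chr1:85104483-85104782 and chr1:84097759-84098058, both on the minus strand. Capitals mark GGTCATGAAC, an imperfect inverted repeat of nuclear receptor half-sites with no spacer. This motif of 10 bases was read from the Sult2a2 window and picked after the sequences had been seen.
Sult2a2: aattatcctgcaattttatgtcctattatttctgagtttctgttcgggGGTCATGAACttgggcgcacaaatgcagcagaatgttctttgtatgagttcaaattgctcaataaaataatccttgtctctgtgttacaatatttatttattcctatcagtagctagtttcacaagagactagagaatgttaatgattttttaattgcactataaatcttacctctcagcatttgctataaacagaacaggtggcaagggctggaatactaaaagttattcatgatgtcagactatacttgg
Sult2a6: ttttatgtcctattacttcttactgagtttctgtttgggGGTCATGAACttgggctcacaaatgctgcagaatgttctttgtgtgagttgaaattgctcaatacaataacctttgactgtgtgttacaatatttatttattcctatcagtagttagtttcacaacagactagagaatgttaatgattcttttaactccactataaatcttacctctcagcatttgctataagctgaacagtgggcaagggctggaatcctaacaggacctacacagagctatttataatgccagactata
The repeat began at base -202 in Sult2a2 and at base -211 in Sult2a6 and Sult2a1. It was in 3 of the 39 members with a promoter entry, these 3, and in 19 of all 33469 promoters (0.0568%). The match in Sult2a2 was fixed by the choice of the motif, and the windows of Sult2a1 and Sult2a6 resemble that of Sult2a2. These counts are therefore no test of enrichment. Over the aligned columns, the window of Sult2a6 was 97.3% identical to that of Sult2a1 and 81.1% identical to that of Sult2a2. Transcripts of genes this close can bind each other's probes, and the arrays do not tell how far each probe set separates them.

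**Figure D2:**
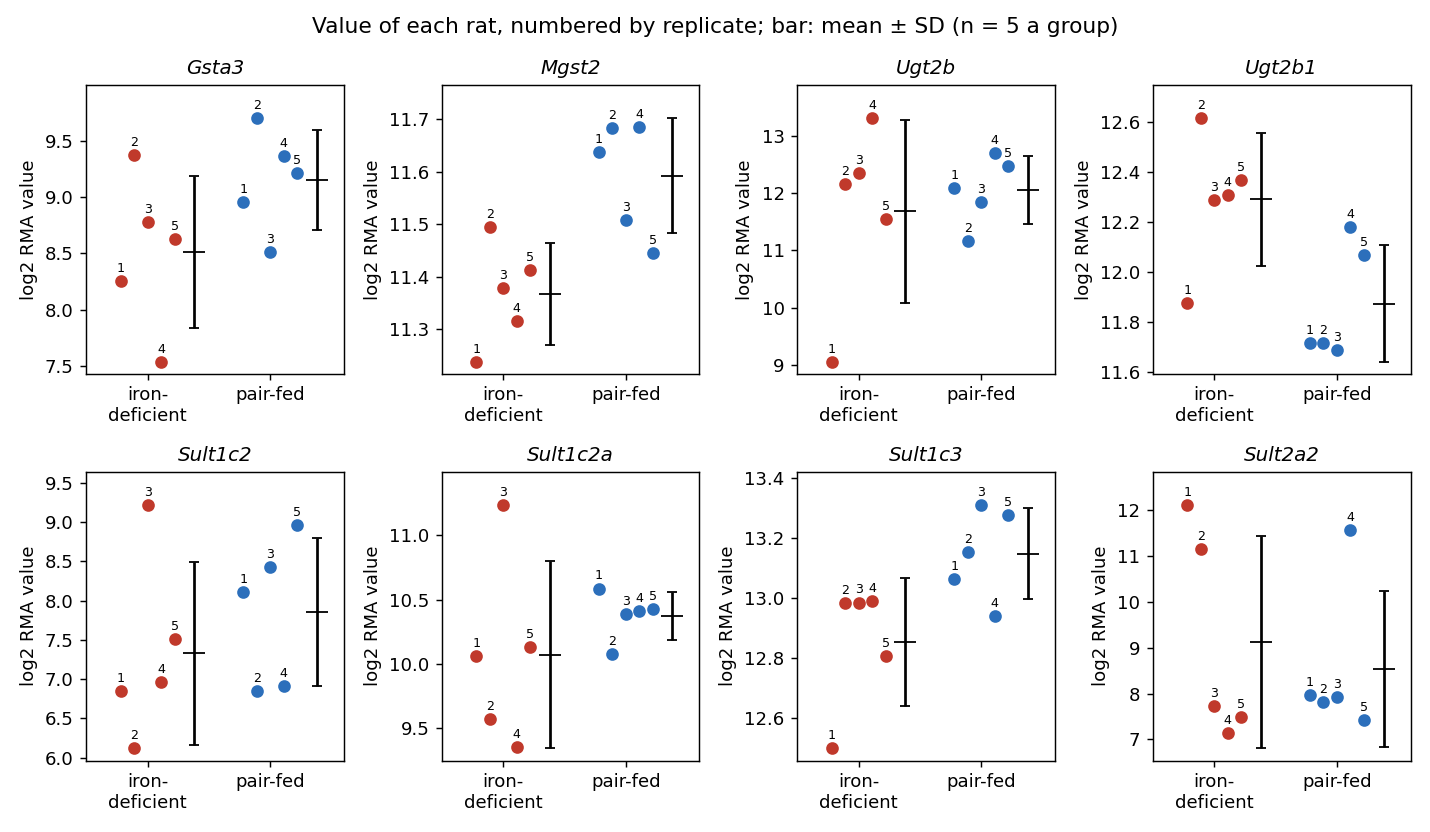
Log2 RMA value of each rat for 8 members, points numbered by replicate, with the mean and SD of each diet group (n = 5) beside them; each panel has its own vertical scale. Sult2a2 has 3 high rats in both diets together, Ugt2b has 1 low rat, and in Ugt2b1, Mgst2 and Sult1c3 nearly all rats of a diet lie to one side.

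In the order of protein-coding genes, the members formed 8 runs of 2 or more, with neighbours at most 10 places apart. The Sult2a run had 3 of 3 members higher and the Sult1C run 3 of 3 lower, with medians of 0.10 and -0.30. How far the probe sets of the Sult1C run separate its members was not tested. In the Sult2a run, Sult2a1 changed by 0.02 with an SE of 0.07, at the bottom of the scale. Sult2a2 changed by -0.15 without iron-deficient rat 1, so a shared direction of the Sult2a run is not shown. The longest run, 11 members from Sult1e1 to Ugt2b34l1, had 5 higher and 6 lower and a median of -0.01. In it, Ugt2b at -0.38 and Ugt2b1 at 0.42 stood among neighbours between -0.10 and 0.11. The runs of Gstm, Gstt, Gsta and Gstp members held both directions, and the 2 Gsto members were lower by 0.06 and 0.01.

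**Figure D3:**
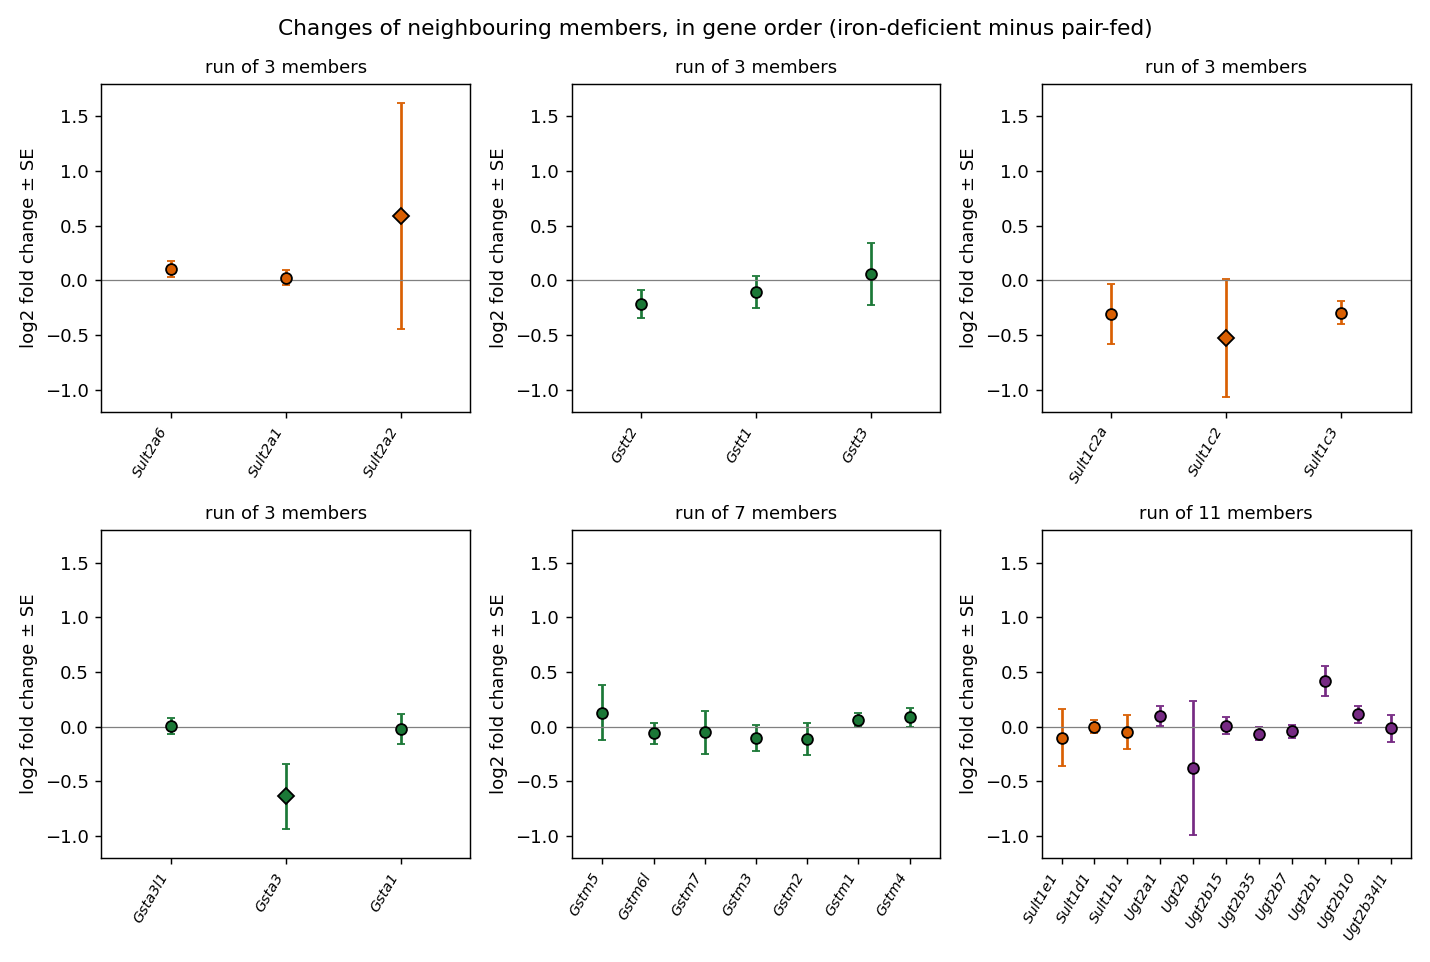
Log2 fold change ± SE (iron-deficient minus pair-fed, 5 rats a group) of members in gene order, for the 6 runs of 3 or more; diamonds passed the rank products test. The 3 Sult1C members are all below 0, while of Gsta3l1, Gsta3 and Gsta1 only Gsta3 passed.

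The 3 called members were among the most variable within a diet. The within-group SD of a member ran from 0.02 in Mgst1 to 2.04 in Sult2a2, with a median of 0.17 beside 0.14 for all probe sets. It was over 0.5 in 7 of 45 members (Sult2a2, Ugt2b, Sult1c2, Gsta3, Gstt3, Sult1c2a and Sult1e1) and in 1.12% of all probe sets. All 3 calls were among these 7, and none was among the other 38. On the whole array, 34% of the probe sets with an SD over 0.5 passed the rank products test in either direction, against 0.489% of the rest. The spread of Sult2a2 was above that of 99.99% of probe sets, and those of Sult1c2 and Gsta3 were above 99.8% and 99.3%.

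**Figure D4:**
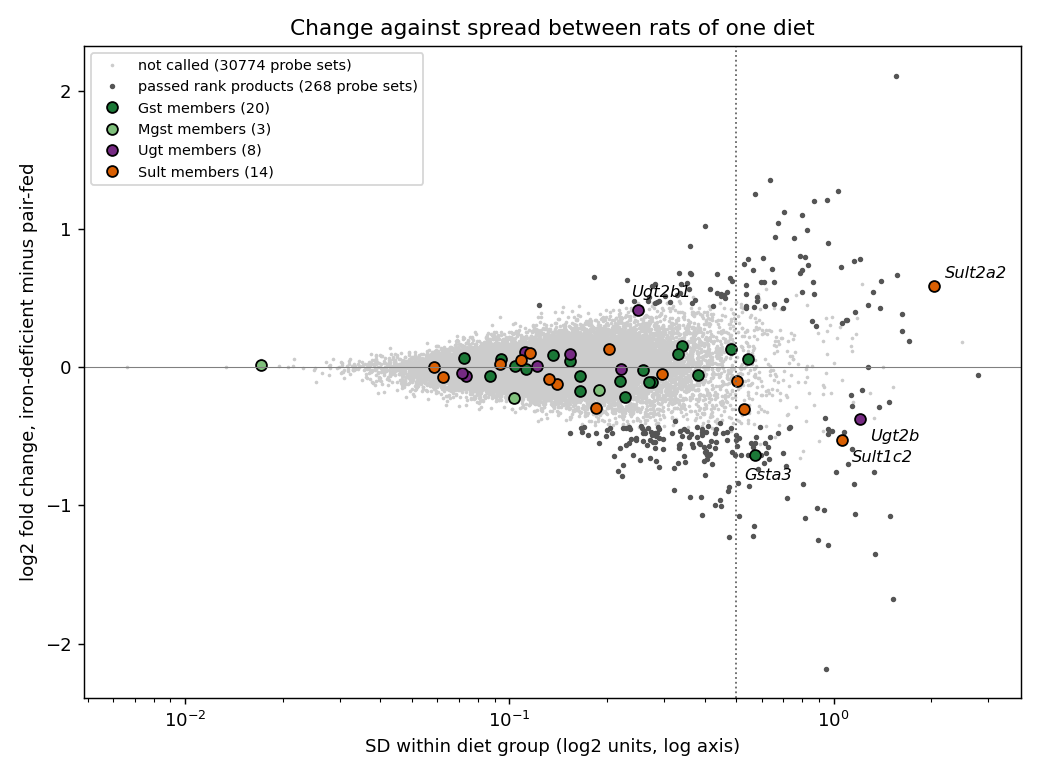
Log2 fold change (vertical) against the SD within a diet group (horizontal, log axis) of all 31042 probe sets, in grey or, where they passed rank products, dark, with the 45 members coloured by family; the dotted line is an SD of 0.5. Gsta3, Sult1c2 and Sult2a2 lie to the right of the line, and most other members lie among the points that did not pass.

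The genes around conjugation were read from lists written with earlier results of these data known. Of the genes of glutathione supply and turnover, 0 of 20 passed as higher and 2 as lower, beside 0.863% of all probe sets past the test in either direction. Nat8, which acetylates cysteine conjugates in the last step from a glutathione conjugate to a mercapturic acid, read 10.99, 11.01, 11.59, 11.38 and 11.18 in iron deficiency and 11.70, 11.93, 12.14, 11.81 and 12.10 in pair-fed rats. The groups did not overlap, and the change was -0.71 with an SE of 0.12 (1.63-fold lower, FDR 0.000667, exact permutation p = 0.00794, limma adjusted p = 0.494). Chac1, which degrades glutathione, was lower by 0.63 (SE 0.27, FDR 0.0169), with 2 pair-fed rats at 8.66 and 9.09 and the other 8 rats between 7.33 and 7.74. Cth and Cbs, the enzymes that make cysteine from homocysteine, were 0.43 (SE 0.09) and 0.32 (SE 0.09) higher with groups that did not overlap, but did not pass (FDR 0.0654 and 0.262).

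None of the 8 genes of UDP-glucuronate supply and release passed. Ugdh, which oxidizes UDP-glucose to UDP-glucuronate, changed by -0.22 with an SE of 0.11. Of 14 genes of sulfate activation and release, 11 were higher and 3 lower (median 0.08), while 47.5% of all genes were higher. In this list 1 gene passed as higher, beside 0.303% of all probe sets. It was Sqor, a mitochondrial enzyme of sulfide oxidation, with a change of 0.74 and an SE of 0.43 (FDR 0.00833). Its iron-deficient values were 10.28, 8.97, 9.15, 8.61 and 11.21, so that rats 1 and 5 lay above the other 8 rats, whose highest value was 9.60. None of the 15 transporters of conjugates and none of the 25 receptors and factors passed. The highest change among transporters was that of Abcc2, the canalicular export pump, at 0.20 (SE 0.15), and among factors that of Foxa3 at 0.30 (SE 0.16).

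Of 16 other targets of the xenobiotic receptors and NRF2, 1 passed as higher and 1 as lower, beside 0.303% and 0.561% of all probe sets. Cyp1a1 passed as higher (0.34, SE 0.44, FDR 0.0424) and Ces2c, a carboxylesterase, as lower (-0.60, SE 0.21, FDR 0.00929). Cyp1a1 ranged from 6.17 to 7.88 in iron deficiency and from 5.77 to 8.24 in pair-fed rats, so the second range enclosed the first. Hmox1, the heme oxygenase under NRF2, changed by -0.46 (SE 0.25) and did not pass. Its highest value, 10.19, was that of pair-fed rat 5, and the other 9 rats lay between 8.42 and 8.93.

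Sult2a1, Sult2a2 and Sult1e1 are also on the lists of sex-biased genes. Of 8 genes known to be higher in female than in male rat liver, all 8 were higher in iron deficiency (median 0.40), beside 47.5% of all genes, and 4 passed the rank products test as higher, beside 0.303% of all probe sets: Prlr, Cyp2c7, Cux2 and Sult2a2. Of these 4, Prlr, Cyp2c7 and Sult2a2 had within-group SDs over 0.5, and Cux2 was the 1 of the 8 with an unadjusted limma p under 0.05 (0.00550). Among the 8, Sult2a1 read 2.97 to 3.25, at the bottom of the scale, and changed by 0.02 with an SE of 0.07. Sult2a2 did not follow the diet (exact permutation p = 0.833) and changed by -0.15 without iron-deficient rat 1. The count of 8 higher genes includes these genes, whose direction is not established. The list was chosen with these results known and is not independent evidence of its direction. Prlr, the prolactin receptor, ranged from 7.69 in rat 4 and 9.46 in rat 3 to 10.64 in rat 2 of the iron-deficient group and from 8.62 to 9.11 in pair-fed rats, a change of 0.80 with an SE of 0.42. Rat 4 was thus the lowest of all 10, while the other 4 of its group exceeded every pair-fed value. Cux2, a repressor of male-biased genes, changed by 0.60 with an SE of 0.18 (exact permutation p = 0.0317), and Cyp2c7, a steroid and retinoid hydroxylase, by 0.73 with an SE of 0.54. Sult2a2, high in iron-deficient rats 1 and 2 and in pair-fed rat 4, and Prlr, high in iron-deficient rats 1, 2, 3 and 5, shared iron-deficient rats 1 and 2 and differed in the others. Of 6 male-biased genes none passed and all 6 were lower, by 0.13 at most (Cyp2c11, -0.13, SE 0.11), Sult1e1 among them.

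**Figure D5:**
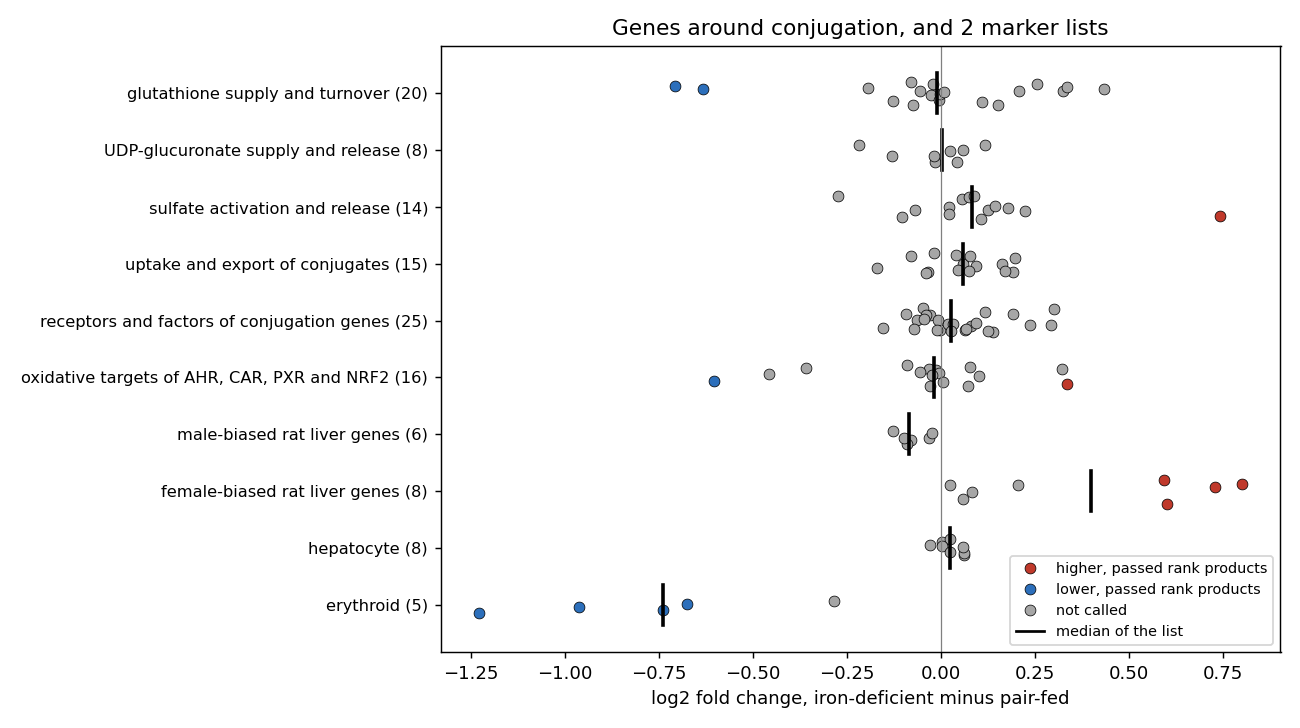
Log2 fold change (iron-deficient minus pair-fed, horizontal axis) of each gene of the 8 lists around conjugation and of the hepatocyte and erythroid markers, with the number measured in parentheses; black bars are medians, and red and blue points passed rank products as higher and lower. The medians of the glutathione, UDP-glucuronate and sulfate lists are -0.01, 0.00 and 0.08, the female-biased list lies above 0 and the erythroid markers below it.

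Markers of other liver cells did not pass the test: 0 of 5 for cholangiocytes, 0 of 5 for Kupffer cells and macrophages, 0 of 4 for endothelium, 0 of 6 for stellate cells, 0 of 5 for T and NK cells and 0 of 3 for neutrophils. Their median changes ran from -0.18 (neutrophils) to 0.15 (stellate cells).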

How the data were processed

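Liver RNA of 10 rats was hybridized to 1 array each. The authors made the log2 values by RMA in R and Bioconductor and deposited them as 1 table. Here 57 control probe sets were left out, leaving 31042. Gene symbols came from the platform annotation: 20826 probe sets had 1 gene, 436 several and 9780 none. A gene was read through its brightest single-gene probe set (highest mean over the 10 arrays). The number of arrays limits the precision.

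Rank products (25 pairs, 100 permutations within arrays, FDR under 0.05), the test of the study's methods, ran over all probe sets in Python 3.11.15. Log2 fold changes, SEs and intervals came from limma 3.58.1, and exact permutation tests were 2-sided. The calculations were tested on simulated data. Alternatives were rank sums, a replicate block, a filter on dim probe sets (mean log2 under 5), renewed quantile normalization, the mean of all probe sets of a gene, and each rat left out. The labels call the rats biological replicates.

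Members named are those called and, per subfamily, the one with the highest level, highest change and lowest change; others (Sult1c3, Sult1c2a, and list genes beyond the 3 largest changes) were added after their values were seen. The members and lists were chosen with earlier results of these data known. All 45 members were found in RefSeq (44 by gene ID, 1 by symbol), and 39 had a promoter entry.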

Additional observations from a re-analysis of the deposited data

Results flagged for a closer look

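In groups of 5 rats, a value stands apart by Dixon's criterion where its gap to the nearest other, divided by the group's range, is above 0.710. Of 104 groups tested, 2 had such a value, and chance gives about 1 in 20. In Sult2a2, pair-fed rat 4 read 11.56 against 7.42 to 7.96 in the other 4 (ratio 0.870). In 1 of the 2 probe sets shared by the Ugt1a genes, iron-deficient rat 2 read 11.51 against 12.11 to 12.35 (ratio 0.716), and it was also the lowest of its group in the other probe set, at 12.41. The 2 high iron-deficient values of Sult2a2, 12.11 and 11.15, lie near each other and so were not picked out.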

How the results depend on the processing

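Members passing as higher (1) and lower (2) became 0 and 0 with rank sums and 0 and 0 with limma. Over all probe sets, 94 and 174 passed. With rank sums 5 and 29 did, and with limma 0 and 0, beside 2168 at an unadjusted limma p of 0.05. With 1 rat left out, 0 to 2 members passed as higher and 1 to 4 as lower, and 47 to 101 and 90 to 188 of all probe sets. Without iron-deficient rat 1, the array with the lowest correlation, Sult2a2 changed by -0.15 in place of 0.59 (without pair-fed rat 4 it changed by 1.35), and 1 member passed as higher, Ugt2b1. The median change of the Sult members ran from -0.0904 to -0.00594 with 1 rat left out. The medians of the Gst members (-0.06 to 0.03), Mgst members (-0.22 to -0.08) and Ugt members (-0.03 to 0.03) moved by less than their spread between rats. With the replicate block, 85 and 148 probe sets passed and the calls of Sult2a2 (FDR 0.00480), Gsta3 (0.0114) and Sult1c2 (0.0139) held. Rats of the same number did not deviate together (correlations -0.04 to 0.09, and 1 of 5 correlated best with its own number), so the numbers were not taken as pairs. The 3 calls also held without dim probe sets, after renewed normalization and with probe sets averaged. Elsewhere the cause of a change was not tested. Signal near background limits the 6 members with a mean under 5.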
